A study of Homo sapiens with 6 samples.

Results

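The 10 genes described here bind, carry, store or export cellular cholesterol, or encode the liver X receptors (LXRs) that switch on its export. They are *NR1H2*, *NR1H3*, *ABCA1*, *ABCG1*, *APOE*, *SCARB1*, *NPC1*, *NPC2*, *STARD4* and *SOAT1*. They were taken by symbol from a table of 27685 genes measured by RNA-seq in SZ95 sebocytes, a human line derived from the sebaceous gland that carries the SV40 large T antigen, and all 10 were among the 16049 genes with enough counts to be tested. The study asked how PM2.5, airborne particulate matter of fine size, changes the transcriptome of these oil-producing skin cells. The control group was 3 samples of SZ95 cells (genotype given as WT) kept for 24 h with the vehicle, 20% ethanol, and the PM2.5 group was 3 samples of the same cells kept for 24 h with 100 μg/mL PM2.5 that had been resuspended in 20% ethanol. Both groups were held in phenol-red free DMEM/F-12 with 1% P/S, and both are a single immortalized line.

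Cells cannot break down the sterol ring, so surplus cholesterol is exported, esterified and stored, or sensed. LXRs are nuclear receptors that bind oxidized derivatives of cholesterol and, paired with a retinoid X receptor, switch on exporters such as ABCA1 and ABCG1. When membranes run short of sterol, the factor SREBP2 is released and switches on uptake and synthesis instead. Sebocytes depend on both arms, because sebum holds cholesterol and its esters beside squalene, wax esters and triglycerides.

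With PM2.5, 6 of the 10 genes rose, none fell and 4 were not called, where a call is an adjusted p under 0.05 in edgeR's quasi-likelihood test with Benjamini-Hochberg adjustment over all 16049 genes. *STARD4* rose the most of the 10, 2.89-fold, followed by *ABCG1* (1.86-fold), *NR1H3* (1.52-fold), *SCARB1* (1.40-fold), *APOE* (1.38-fold) and *NPC1* (1.14-fold). The 4 genes without a call were *NR1H2*, *NPC2*, *ABCA1* and *SOAT1*. Across all tested genes 43.6% were called, 21.7% as higher and 22.0% as lower, so 6 higher of 10 stands above the background share and 0 lower of 10 below it. The 10 genes were chosen with earlier results of these data known, so this contrast is a description and not a test. At an unadjusted p under 0.05 edgeR placed 8 of the 10 higher, with *NR1H2* and *NPC2* among them, and 2 lower, *ABCA1* and *SOAT1*. At an adjusted p under 0.05, 0 were lower by DESeq2 or by limma-voom. The levels of the groups did not overlap for any of the 10, with 8 above and 2 below the control range, against 56.3% of all tested genes. The median log2 fold change was 0.33 over the 10 genes and 0.0042 over all tested genes.

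The libraries held 56460553 to 71080000 counts each, and correlations between log2 levels were 0.989 to 0.991 within groups and 0.976 to 0.981 between them. Levels are given as CPM, counts brought to a common library total and scaled by TMM (the trimmed mean of M-values), and are compared between groups, not between genes, since they were not divided by gene length. Nothing states that the 3 samples of a group were separate cultures, so p-values measure the spread between these samples, which may be technical. Of 16 sebaceous markers 10 could be tested, 3 rose (*PPARG*, *FADS2* and *ELOVL3*), 5 fell (*KRT7*, *MUC1*, *SOX9*, *FA2H* and *PRDM1*), or 80.0% called against 43.6% of all tested genes, and *AWAT1*, *AWAT2*, *DGAT2L6* and *HAO2* of the mature gland were at 0 in every library. Of 10 macrophage markers 9 were in the table, and their summed level was 76.5 to 79.8 CPM in control and 115 to 124 CPM in PM2.5 libraries, most of it *CD68*, a lysosomal protein gene that rose from 62.9 to 104 CPM, while *CD163* and *TYROBP* were at 0. Summed levels of 4 endothelial markers were 183 to 207 CPM in control and 81.0 to 92.3 CPM in PM2.5 libraries, with *CDH5* the main contributor and *PECAM1* below 1 CPM. The sums were 421 to 457 and 321 to 361 CPM for 8 keratinocyte markers, 44.1 to 49.2 and 52.3 to 56.6 CPM for 6 fibroblast markers, and 38.3 to 42.1 and 41.7 to 45.7 CPM for 6 melanocyte markers, with *MLANA* and *TYR* at 0. All libraries came from a single line, so these sums are gene levels within it and do not count cells of other types. The part of these marker shifts in the results was not tested. In bulk RNA a change in all cells and a change in some of them cannot be told apart.

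The promoters of *STARD4*, which changed most, and of *ABCA1*, the best-known LXR target, are shown because they hold different short motifs. Each window is the 250 bases before the annotated start in RefSeq (GRCh38.p14), and 8 of the 10 genes had windows, *ABCG1* and *SCARB1* not being among them. *STARD4* is on the minus strand at chr5:111512536-111512785, and capitals mark its 2 copies of CCAAT, the letters bound by NF-Y, a factor that works beside SREBP2 on many promoters. *ABCA1* is on the minus strand at chr9:104928156-104928405, and capitals mark the E-box CACGTG and, after it, a stretch that resembles the LXR element, which is 2 copies of AGGTCA with 4 bases between them. Both are written 5′ to 3′ on the gene's own strand.
STARD4: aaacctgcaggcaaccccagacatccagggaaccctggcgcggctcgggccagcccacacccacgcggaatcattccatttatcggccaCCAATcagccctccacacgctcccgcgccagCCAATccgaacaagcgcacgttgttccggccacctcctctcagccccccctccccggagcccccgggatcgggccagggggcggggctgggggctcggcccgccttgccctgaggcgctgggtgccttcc
ABCA1: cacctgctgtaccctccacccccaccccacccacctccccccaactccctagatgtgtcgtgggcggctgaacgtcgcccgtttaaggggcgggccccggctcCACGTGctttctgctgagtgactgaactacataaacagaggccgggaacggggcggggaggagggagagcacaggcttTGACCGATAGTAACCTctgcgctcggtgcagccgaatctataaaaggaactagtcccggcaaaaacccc
The CCAAT copies of *STARD4* lay at -161 to -157 and -130 to -126 from the start, and 9.53% of 35116 RefSeq windows of this length held at least 2 copies on either strand. The *ABCA1* stretch lay at -69 to -54 and reads AGGTTACTATCGGTCA on the reverse strand, and with at most 1 mismatch in each AGGTCA copy 1.18% of windows held such a match on either strand. The E-box at -147 to -142 of *ABCA1* was in 6.35% of windows. GCGTG, the core bound by the aryl hydrocarbon receptor, was at -189 to -185 and -146 to -142 on the reverse strand of *STARD4*, and 32.2% of windows held it. A window of *NR1H3* also held GCGTG, at -165 to -161 and -21 to -17 on the reverse strand. So did *SOAT1*, at -53 to -49, and *NR1H2*, at -23 to -19 on the reverse strand. Neither *SOAT1* nor *NR1H2* was called. A window of *NPC2*, which was not called, also held 2 copies of CCAAT, at -144 to -140 and -114 to -110 on the reverse strand. Single copies were found in windows of *SOAT1*, *NR1H3* and *APOE*, and CCAAT was in 32.0% of all windows. The exact letters TCACCCCAC, a sterol element that SREBP2 binds, were in none of the 14 windows of the 8 genes and in 0.362% of all windows. No mismatch was allowed in them, unlike in the search for the LXR element, so similar sterol elements were not counted. A match describes letters only, and none of these data measured binding.

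**Figure D1:**
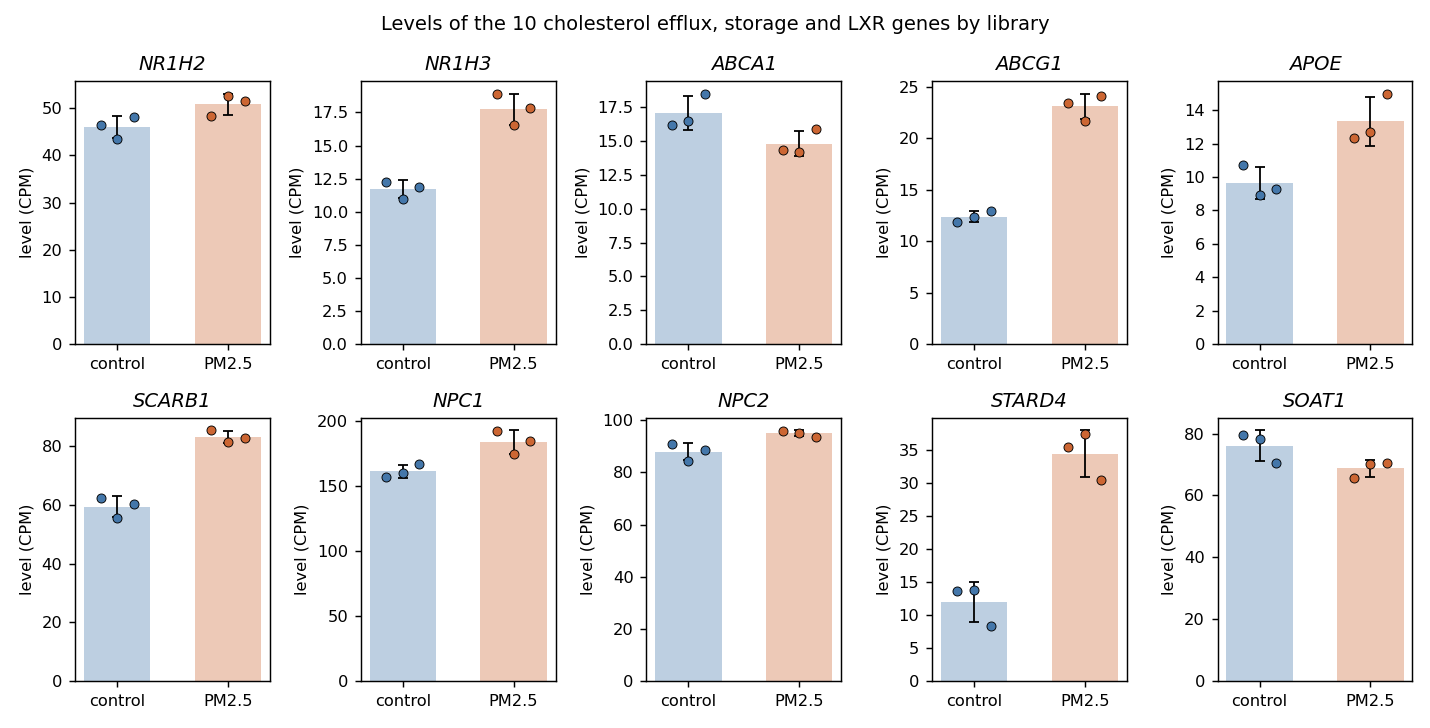
Level of each of the 10 genes in CPM (vertical axes from 0, own scale per gene) in 3 control (blue) and 3 PM2.5 (orange) libraries, where points are libraries from replicate 1 on the left to 3 on the right, bars are means and whiskers are SD. The PM2.5 points lie above all control points for 8 genes and below them for *ABCA1* and *SOAT1*, and *STARD4* shows the widest gap relative to its own scale, from a mean of 12.0 to 34.5 CPM.

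Of the LXR receptors, *NR1H3* (LXRα, the form with a restricted tissue pattern) rose and *NR1H2* (LXRβ, the form found in most tissues) was not called. *NR1H3* was at 12.3, 10.9 and 11.8 CPM in control libraries and at 18.9, 16.5 and 17.8 CPM in PM2.5 libraries. The lowest PM2.5 library stood well above the highest control library. Its mean went from 11.7 ± 0.686 to 17.8 ± 1.17 CPM (SD, n = 3 each), a log2 fold change of 0.60 (SE 0.077, 95% interval 0.43 to 0.78, edgeR adjusted p = 0.000661). By annotation 4.17% of its exon bases overlap *ACP2*, a lysosomal phosphatase gene on the opposite strand. *ACP2* was at 24.8, 34.0 and 36.7 CPM in control and 19.1, 26.9 and 31.3 CPM in PM2.5 libraries, and its part in the *NR1H3* counts was not tested, as whether counting used the strand is not given in the sources used here.

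*NR1H2* was at 46.4, 43.6 and 48.1 CPM in control libraries and at 48.3, 52.7 and 51.5 CPM in PM2.5 libraries. The groups nearly touched, with PM2.5 replicate 1 just above control replicate 3. The log2 fold change was 0.14 (SE 0.059, interval 0.0076 to 0.28) with an edgeR adjusted p of 0.0820. Without control replicate 3 it was called, with a log2 fold change of 0.17 and an adjusted p of 0.0455, as it was with upper-quartile scaling, with library size as the only scaling and with a mean count of at least 50. Read counts of *NR1H3* per read of *NR1H2* within a library were 0.264, 0.251 and 0.246 in control and 0.391, 0.314 and 0.346 in PM2.5 libraries, so every PM2.5 library held relatively more *NR1H3*. This ratio and the others below were chosen after the values were seen and were not tested.

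The partners and coregulators of LXR were more often lower than higher. Of 16 listed genes 15 were tested, 2 rose, 7 fell (46.7% of those tested, against 22.0% of all genes) and 6 were not called, with a median log2 fold change of -0.14. *RXRA*, the retinoid X receptor that pairs with LXR, fell from 284 ± 21.6 to 206 ± 12.6 CPM, by 0.46 on the log2 scale (edgeR adjusted p = 0.00128). *TBL1XR1*, a subunit of the NCoR corepressor complex, fell the furthest of those above 1 CPM, from 159, 152 and 130 CPM to 90.7, 40.9 and 90.0 CPM, by 1.00 on the log2 scale (SE 0.27, adjusted p = 0.0172). PM2.5 replicate 2 lay far below the other PM2.5 libraries, all 3 lay below the control range, and over 15 other settings the log2 fold change ranged from -1.17 to -0.69 and stayed called. *GPS2*, another subunit of that complex, fell by 0.30 (adjusted p = 0.00917). The risers were the coactivator genes *NCOA1*, with a log2 fold change of 0.22, and *NCOA6*, with 0.14, and *RXRG* was at 0 in every library. The call of *NCOA6* was lost without control replicate 1 (adjusted p = 0.120), control replicate 2 (0.102) or PM2.5 replicate 1 (0.0782).

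Of the pair of ABC transporters that LXR is best known for, *ABCG1* rose and *ABCA1* was not called. *ABCG1*, which passes cholesterol to formed HDL particles, was at 11.9, 12.3 and 13.0 CPM in control libraries and at 23.5, 21.7 and 24.1 CPM in PM2.5 libraries. Both groups were tight, and the groups were separated by more than the spread of either. Its mean went from 12.4 ± 0.524 to 23.1 ± 1.25 CPM, a log2 fold change of 0.90 (SE 0.068, interval 0.74 to 1.05, edgeR adjusted p = 9.0e-05).

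*ABCA1*, which loads cholesterol and phospholipid onto lipid-poor apolipoprotein A-I, was at 16.2, 16.5 and 18.5 CPM in control libraries and at 14.4, 14.2 and 15.9 CPM in PM2.5 libraries. The highest PM2.5 library came within a small margin of the lowest control library. Its log2 fold change was -0.21 (SE 0.078, interval -0.39 to -0.026) and missed the threshold with an edgeR adjusted p of 0.0642. Leaving out PM2.5 replicate 3 gave a call as lower, at -0.25 with an adjusted p of 0.0394. Within a library the reads of *ABCG1* per read of *ABCA1* were 0.738, 0.748 and 0.701 in control and 1.64, 1.53 and 1.52 in PM2.5 samples, a mean of 0.729 ± 0.0248 against 1.56 ± 0.0636. *ABCA1* thus had more reads than *ABCG1* in each control library and fewer in each PM2.5 library. Reads were not divided by gene length, so only the shift of the ratio between groups can be read, not which gene had more RNA. These ratios do not depend on the scaling between libraries.

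**Figure D2:**
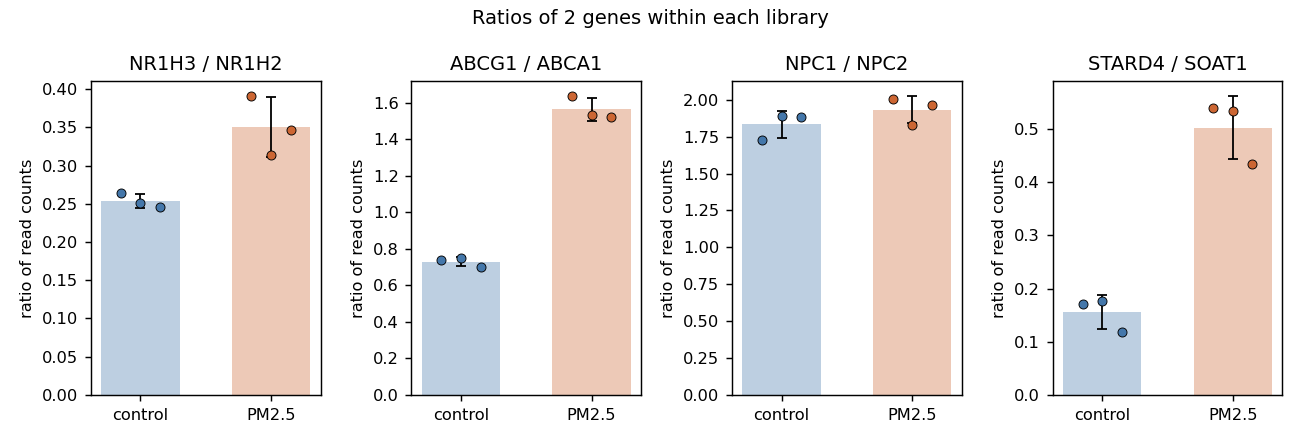
Ratio of the read counts of 2 genes within each library (vertical axes from 0, no unit) for 4 pairs, in 3 control (blue) and 3 PM2.5 (orange) libraries, where points are libraries, bars are means and whiskers are SD. The ratio of *ABCG1* to *ABCA1* was 0.701 to 0.748 in control and 1.52 to 1.64 in PM2.5 libraries, and only the pair *NPC1* and *NPC2* has overlapping groups.

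Outside this pair, 15 other ABCA and ABCG transporters were listed and 11 tested, of which 3 rose (27.3%, near the 21.7% of all genes), 0 fell by edgeR, DESeq2 or limma-voom (1 at an unadjusted p under 0.05 in edgeR) and 8 were not called. *ABCG2*, an exporter of drugs and porphyrins, rose from 15.6 ± 2.18 to 48.6 ± 6.42 CPM, a log2 fold change of 1.64 (adjusted p = 9.6e-05). *ABCA3*, the lamellar body lipid transporter of lung, rose by 0.99 and *ABCG4*, a close relative of *ABCG1*, by 0.78 on the log2 scale. *ABCG5* and *ABCG8*, the sterol exporters of liver and gut, were at 0 in every library.

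Of 21 other LXR target genes 15 were tested, 7 rose (46.7%, against 21.7% of all genes), 1 fell and 7 were not called. The lipogenic enzymes led, with *SCD*, the stearoyl-CoA desaturase, going from 482 ± 50.7 to 1191 ± 39.8 CPM (log2 fold change 1.31) and *FASN*, the fatty acid synthase, from 404 ± 7.07 to 807 ± 55.3 CPM (log2 fold change 1.00). *SREBF1*, *MLXIPL*, *APOC1* and *ABCG4* were also among those that rose. *SCD* and *FASN* are known targets of the SREBPs as well as of LXR. *MYLIP*, an LXR-induced ubiquitin ligase, had a log2 fold change of 0.05 (adjusted p = 0.694) and *LPCAT3*, a phospholipid-remodelling LXR target, 0.16 (adjusted p = 0.0719), and neither passed. *SMPDL3A*, an LXR-induced phosphodiesterase of human macrophages, fell by 0.36, a call lost without control replicate 2 (adjusted p = 0.0535), control replicate 3 (0.0541) or PM2.5 replicate 3 (0.0547).

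*APOE*, the apolipoprotein that carries cholesterol out of many peripheral cells, rose. It was at 10.7, 8.94 and 9.27 CPM in control libraries and at 12.3, 12.7 and 14.99 CPM in PM2.5 libraries. Control replicate 1 and PM2.5 replicate 1 were the closest, and PM2.5 replicate 3 was highest. The log2 fold change was 0.47 (SE 0.10, interval 0.23 to 0.70, edgeR adjusted p = 0.00805). *SCARB1*, the receptor that exchanges cholesterol and its esters with HDL in both directions, was at 62.5, 55.6 and 60.3 CPM in control and 85.5, 81.3 and 83.0 CPM in PM2.5 libraries. Its PM2.5 samples were tightly grouped far above the control samples, with a log2 fold change of 0.49 (SE 0.056, interval 0.36 to 0.61, adjusted p = 0.000416).

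None of the other carriers and remodelling enzymes of lipoproteins was called higher. Of 18 listed genes 8 were tested, 0 rose by edgeR, DESeq2 or limma-voom (0 also at an unadjusted p under 0.05 in edgeR), 2 fell (25.0%, against 22.0% of all genes) and 6 were not called. *LCAT*, which esterifies cholesterol on HDL, fell from 20.0 ± 1.85 to 13.1 ± 0.879 CPM, by 0.61 on the log2 scale (adjusted p = 0.00103), and *CLU*, also called apolipoprotein J, fell by 0.33. *APOB*, *APOA2*, *APOA4*, *APOA5*, *APOC3*, *APOH* and *CETP* were at 0, and *APOA1*, whose protein is the usual acceptor for ABCA1, was near 0.

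*NPC1* and *NPC2* encode the membrane and the soluble protein that together hand cholesterol out of the lysosome. *NPC1* was at 156.9, 159.6 and 167.0 CPM in control libraries and at 192.5, 174.3 and 184.3 CPM in PM2.5 libraries. All PM2.5 values lay above all control values, with PM2.5 replicate 2 the nearest. The log2 fold change was 0.19 (SE 0.052, interval 0.070 to 0.31, edgeR adjusted p = 0.0191), and the call was lost without control replicate 1 (adjusted p = 0.0722), control replicate 2 (0.0580) or PM2.5 replicate 1 (0.0600). By annotation 5.98% of its exon bases overlap *RMC1* on the opposite strand.

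*NPC2* was at 90.8, 84.5 and 88.8 CPM in control and at 96.0, 95.3 and 93.7 CPM in PM2.5 libraries. The lowest PM2.5 library was a little above the highest control library, and the log2 fold change of 0.11 (SE 0.046, interval 0.0052 to 0.22) had an edgeR adjusted p of 0.0835. By annotation 3.75% of the exon bases of *NPC2* overlap *ISCA2* on the opposite strand. *NPC2* passed with upper-quartile scaling, library size only and a mean count of at least 50. The ratio of *NPC1* to *NPC2* reads was 1.73, 1.89 and 1.88 in control and 2.00, 1.83 and 1.97 in PM2.5 libraries, and here the groups overlapped.

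Of 17 other genes of lysosomal cholesterol release 16 were tested, 4 rose (25.0%, against 21.7%), 2 fell and 10 were not called, with a median log2 fold change of 0.047. *GPR155*, a lysosomal cholesterol sensor, rose the most, from 0.696 ± 0.0427 to 2.28 ± 0.344 CPM (log2 fold change 1.72, adjusted p = 0.000247). *ANXA6*, an annexin of late endosomes, rose by 0.56 and *TPCN1*, a channel of endolysosomes, by 0.27 on the log2 scale. *SLC38A9*, which takes part in sterol and amino acid sensing at the lysosome, fell by 0.30 and *LAMP1*, a major lysosomal membrane protein, by 0.17. The *LAMP1* call was lost without any single library other than control replicate 2 (adjusted p from 0.0640 without PM2.5 replicate 1 to 0.110 without control replicate 1 or PM2.5 replicate 2). *LIPA*, the acid lipase that frees cholesterol from its esters, did not pass (log2 fold change 0.12, adjusted p = 0.0642).

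*STARD4* encodes a soluble carrier that moves cholesterol between membranes and brings it to the endoplasmic reticulum. It was at 13.7, 13.8 and 8.39 CPM in control libraries and at 35.4, 37.5 and 30.5 CPM in PM2.5 libraries. Every PM2.5 library held more than any control library by a wide margin, and replicate 3 was the lowest of each group. The mean went from 12.0 ± 3.09 to 34.5 ± 3.57 CPM, a log2 fold change of 1.53 (SE 0.18, interval 1.12 to 1.94, edgeR adjusted p = 0.000441), which in size exceeded 97.9% of all tested genes. Without control replicate 3 the log2 fold change was 1.33, still called. By annotation 2.18% of its exon bases overlap *STARD4-AS1* on the opposite strand, which was below 1 CPM in every library.

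Among 10375 genes with a mean of at least 10 CPM outside the 10, the ones whose log2 levels, centred on the control mean, followed *STARD4* most closely over the 6 libraries were *MSMO1* and *FGFBP1*, at Euclidean distances of 0.364 and 0.365. *MSMO1*, a methylsterol oxidase of cholesterol synthesis, was at 57.7, 62.7 and 47.5 CPM in control and 153, 165 and 141 CPM in PM2.5 libraries. *FGFBP1*, a fibroblast growth factor binding protein gene, was at 6.82, 8.30 and 4.79 CPM in control and 22.96, 18.33 and 18.28 CPM in PM2.5 libraries. Replicate 3 was the lowest of its group for *STARD4*, *MSMO1* and *FGFBP1* in both groups. The genes were picked for their likeness over these same libraries, so a shared pattern follows from the choice.

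The other sterol carriers did not move as one. Of 22 listed genes 20 were tested, 5 rose (25.0%, against 21.7%), 4 fell (20.0%, against 22.0%) and 11 were not called. *GRAMD1B* and *GRAMD1A*, which carry plasma membrane cholesterol to the endoplasmic reticulum, had log2 fold changes of 0.44 and 0.30, and *OSBPL10*, an oxysterol-binding protein relative, of 0.37. *OSBPL7* fell by 0.66, *OSBPL3* by 0.34 and *OSBPL9* by 0.18. The *OSBPL9* call was lost without any single library other than control replicate 3 (adjusted p from 0.0956 without PM2.5 replicate 3 to 0.179 without PM2.5 replicate 1). *GRAMD1B* lost its call without control replicate 2 (0.0511), control replicate 3 (0.0732), PM2.5 replicate 1 (0.0882) or PM2.5 replicate 3 (0.0809), and *GRAMD1A* without control replicate 1 (0.0644) or 2 (0.0628). *STAR*, the mitochondrial relative of *STARD4*, was at 0 in every library.

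*SOAT1* encodes the acyltransferase that esterifies cholesterol for storage in droplets. It was at 79.6, 78.3 and 70.5 CPM in control libraries and at 65.7, 70.1 and 70.4 CPM in PM2.5 libraries. Control replicate 3 and PM2.5 replicate 3 were almost equal, so the groups barely separated. The log2 fold change was -0.15 (SE 0.061, interval -0.29 to -0.0079, edgeR adjusted p = 0.0820), and leaving out control replicate 3 gave -0.20 and a call (adjusted p = 0.0135). Reads of *STARD4* per read of *SOAT1* were 0.172, 0.176 and 0.119 in control and 0.540, 0.534 and 0.434 in PM2.5 samples, with no overlap. Of 13 other genes of ester storage and hydrolysis 10 were tested, 1 rose (10.0%, against 21.7%), 1 fell (10.0%, against 22.0%) and 8 were not called. *PLIN1*, a droplet coat protein gene, rose from 0.809 ± 0.129 to 1.40 ± 0.237 CPM and *LIPE*, the hormone-sensitive lipase gene, fell from 16.9 ± 1.80 to 13.2 ± 0.313 CPM. *NCEH1*, an ester hydrolase gene, had a log2 fold change of -0.09 (adjusted p = 0.774).

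**Figure D3:**
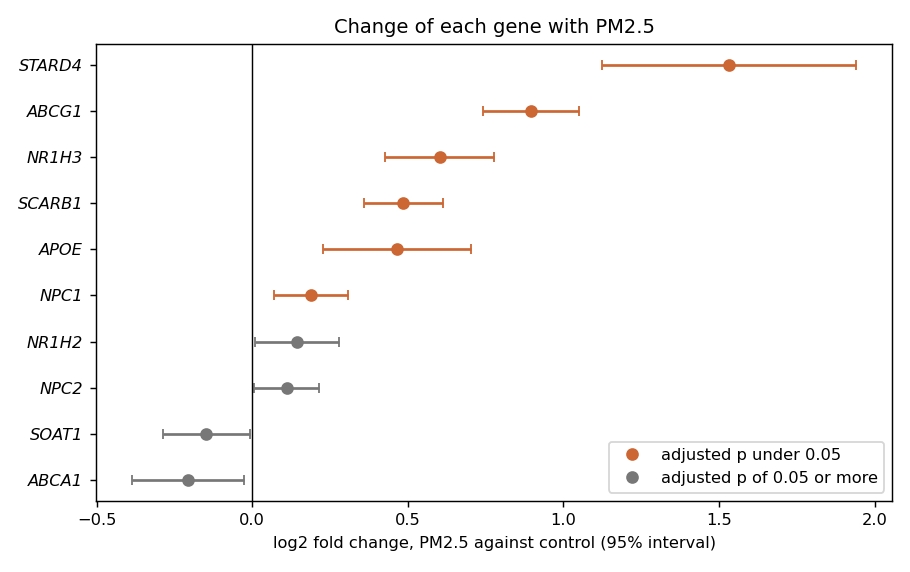
Log2 fold change of PM2.5 against control (horizontal axis) for the 10 genes, with points for edgeR estimates from 3 libraries per group and bars for 95% intervals, orange where the adjusted p was under 0.05 and grey otherwise. The 6 called genes run from 0.19 for *NPC1* to 1.53 for *STARD4*, and the intervals of the 4 grey genes end close to 0.

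The sterol feedback genes controlled by SREBP2 gave the highest share of rises among the lists. Of 19 genes, all tested, 15 rose (78.9%, against 21.7% of all genes), 0 fell by edgeR, DESeq2 or limma-voom (0 also at an unadjusted p under 0.05 in edgeR) and 4 were not called, with a median log2 fold change of 0.61. *MSMO1* rose from 55.9 ± 7.76 to 153 ± 12.0 CPM (log2 fold change 1.45, adjusted p = 7.3e-05). *SREBF2*, which encodes SREBP2 itself, rose by 0.44. *STARD4*, itself a known SREBP2 target, was not counted in this list.

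Of 16 genes that make or remove oxysterols, the LXR ligands, 11 were tested, 7 rose (63.6%, against 21.7%), 0 fell by edgeR, DESeq2 or limma-voom (0 also at an unadjusted p under 0.05 in edgeR) and 4 were not called. DESeq2 called 5 of them higher. The largest rises among those above 1 CPM were *DHCR7*, from 137 ± 6.44 to 299.98 ± 10.4 CPM (log2 fold change 1.13), *CYP11A1*, at 0.84, and *LSS*, at 0.82. *DHCR7*, *LSS* and *EBP* are best known as enzymes of cholesterol synthesis, and *CYP11A1* as the side-chain cleavage enzyme of steroid synthesis. Of the enzymes that hydroxylate the side chain, *CYP27A1* had a log2 fold change of 0.10 (adjusted p = 0.375), *CH25H* had too few counts to be tested and *CYP46A1* was at 0.

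**Figure D4:**
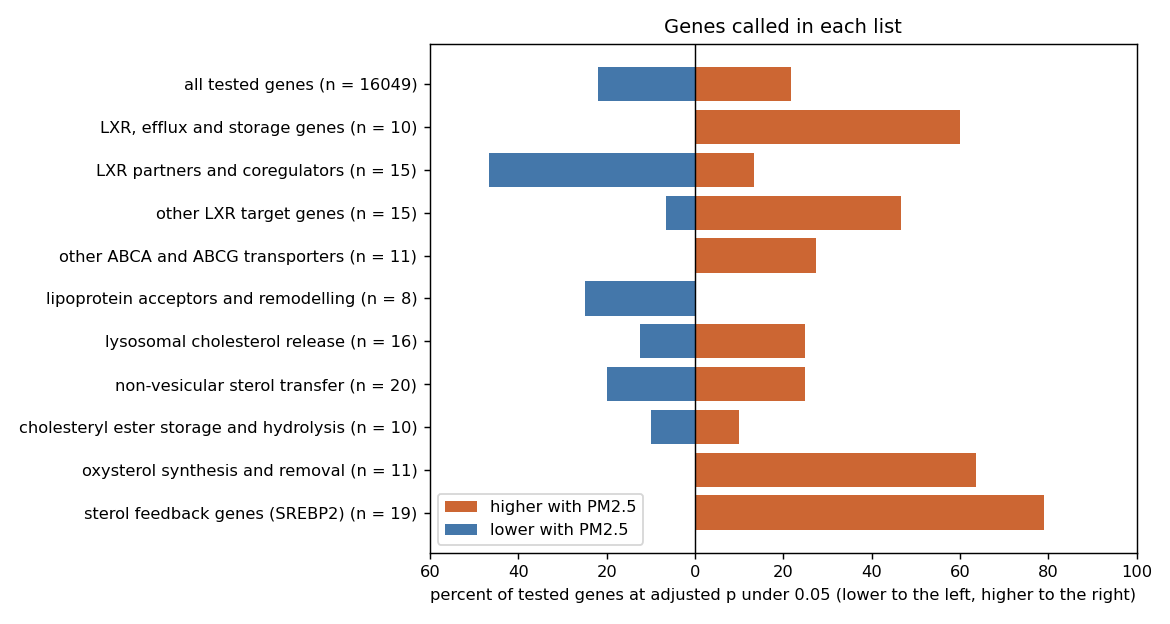
Percent of tested genes called at an adjusted p under 0.05 in edgeR (horizontal axis, higher with PM2.5 to the right in orange, lower to the left in blue) for all genes, the 10 genes and 9 lists of related genes, with the number tested beside each name. The sterol feedback list reaches 78.9% higher, and the LXR partners show the largest share lower at 46.7%.

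Across 15 other ways of processing the counts, *STARD4*, *ABCG1*, *NR1H3*, *SCARB1* and *APOE* were called higher in 15 of 15 and *NPC1* in 12. None of the 10 changed direction in any of them. *NR1H2* was called in 4, *NPC2* in 3, *ABCA1* in 2 and *SOAT1* in 1.

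**Figure D5:**
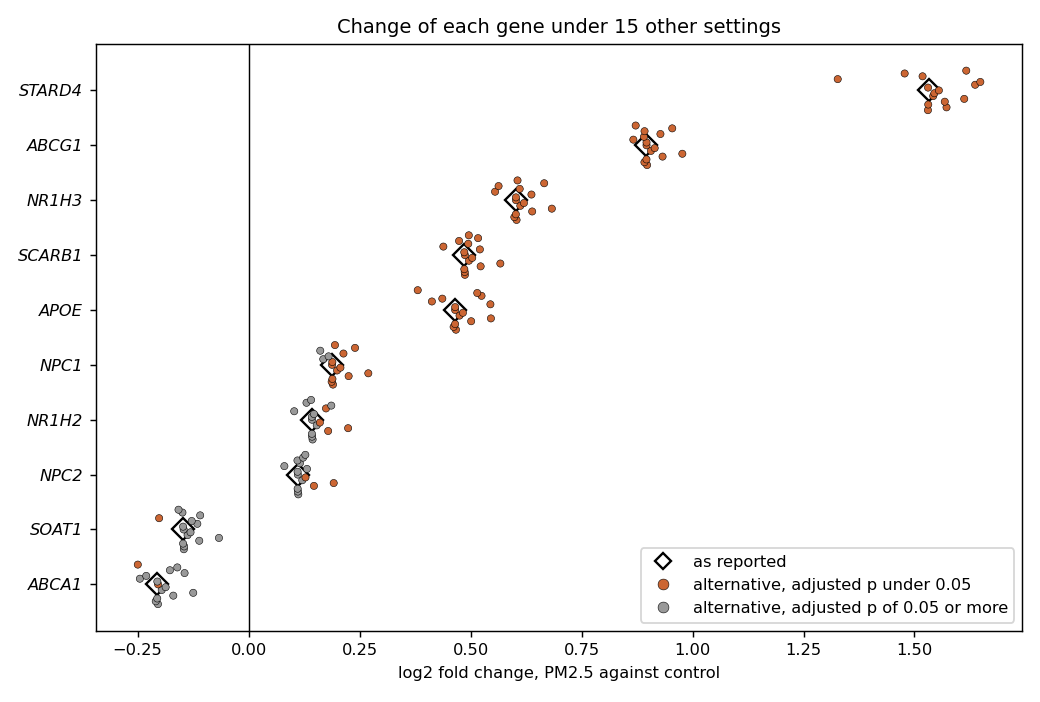
Log2 fold change of PM2.5 against control (horizontal axis) for the 10 genes as reported (open diamonds) and under 15 other settings (points, orange where the adjusted p was under 0.05, grey otherwise). The points of *STARD4* run from 1.33 to 1.65, and no gene has points on both sides of 0.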

How the data were processed

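RNA-seq counts of 3 control and 3 PM2.5 libraries of SZ95 sebocytes were used, grouped by the sample labels. The authors deposited raw read counts per gene as whole numbers, without normalization. Libraries were made with a stranded kit that selects polyadenylated RNA, and the submitters' processing notes list the build hg19 and, with no role given, the aligner HISAT2 2.0.5, the trimmer Trimmomatic 0.32, StringTie 1.3.3b and DESeq2. How counts were taken from the alignments, and with which strand setting, is not given in the sources used here. One of the 6 column names carries an extra hyphen and was read as PM2.5 replicate 1. Totals ran from 56460553 to 71080000 counts.

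The software was edgeR 4.0.16, DESeq2 1.42.0 and limma 3.58.1 under R 4.3.3. Genes were kept by filterByExpr (minimum count 10, minimum total 15), which left 16049 of 27685, of which 7274 had no count. Counts were scaled by TMM, fitted by glmQLFit (legacy option off) on treatment alone, glmQLFTest gave two-sided tests, and p-values were adjusted by Benjamini and Hochberg over all tested genes. A standard error is the absolute log2 fold change divided by the square root of F. The code was tested on simulated data. The alternatives were DESeq2, limma-voom, relative log expression, upper-quartile and library-size scaling, no filter, a mean count of at least 50, the replicate number as a block, the legacy fit and each library left out.

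The members and lists were chosen with earlier results of these data known. All 10 genes are named, with up to 3 called genes per direction from each list, those with the largest log2 fold change among genes of at least 1 CPM in the higher group, and for *STARD4*, the called gene with the largest change, the 3 most similar genes. Some genes that this rule names are not reported here. Other list genes and the ratios were chosen after their values were seen. Genes in more than 1 list (*LIPA*, *OSBPL1A*, *STARD3*, *ABCG4*, *ABCG5*, *ABCG8*, *CETP* and *PLTP*) count in each. Of the macrophage markers, *EMR1* was not found under that symbol. Exon overlaps are from GENCODE on GRCh38, and promoters and their coordinates from RefSeq on GRCh38.p14, not the build of the counts.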

Additional observations from a re-analysis of the deposited data

How the results depend on the processing

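The count of 6 genes called higher stayed within 1.5 times under each of the 15 alternatives. The count of genes called lower, 0 as reported, was 1 with the replicate number as a block (*ABCA1*, log2 fold change -0.20, adjusted p = 0.0307), and 0 to 1 with a library left out. Replicate numbers were not taken as pairs, since the same-numbered libraries deviated together with correlations of only -0.00316, 0.0793 and 0.0888. Both libraries numbered 1 correlated better with another number, while the libraries numbered 2 and 3 correlated best with their own number. The block gave 3573 higher and 3658 lower calls over all genes, against 3476 and 3523. Scaling by library size alone gave 4770 higher and 2546 lower calls, so that 65.2% of calls were higher instead of 49.7%, and the median of all genes moved by 0.081 on the log2 scale. *NR1H2* and *NPC2* passed the threshold there. Among the named list genes, *LAMP1* kept its call in 8 of 15 alternatives and *OSBPL9* in 5, and *NCOA6*, *SMPDL3A*, *GRAMD1B* and *GRAMD1A* lost theirs in 2 to 4. With 3 libraries per group, the 95% interval of each of the 4 genes without a call left out 0 before adjustment. On the log2 scale these intervals ran from -0.39 to -0.026 for *ABCA1* and from -0.29 to -0.0079 for *SOAT1*. They ran from 0.0052 to 0.22 for *NPC2* and from 0.0076 to 0.28 for *NR1H2*. None of these genes passed as reported after adjustment over all tested genes, and the size of a change within its interval cannot be resolved here.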
